A study of Homo sapiens with 12 samples.

Results

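The transcripts of 36 genes were followed in HK2 cells, an immortalised line of human renal proximal tubular epithelial cells that is written HK2 cells throughout, while the symbol HK2 alone stands for the gene of hexokinase 2. The genes were 24 of glycolysis, its regulators and its lactate branch, and 12 other target genes of hypoxia-inducible factor (HIF). Members were taken by symbol from these gene families. All 36 matched 1 Ensembl identifier each among the 62703 of the expression tables, and 35 were tested among 14639 genes with at least 1 TPM (transcripts scaled to a fixed total per library) in 3 or more libraries. ALDOC, a brain-enriched aldolase, was the exception, with at most 0.62 TPM in any library.

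The study asked what part reduced FGF9, fibroblast growth factor 9, plays in tubular epithelial cells in diabetes. It sequenced total RNA from 4 groups of 3 libraries. NG cells received a control vector at 5.5 mM glucose, si-FGF9 cells received a small interfering RNA against FGF9 at 5.5 mM, HG cells received 50 mM glucose, and HG + OE-FGF9 cells received 50 mM glucose and a viral vector carrying FGF9. The study's methods describe neither a non-targeting small interfering RNA for the si-FGF9 group nor a control vector for the HG group, and its text differs on whether the NG medium held mannitol as an osmotic control. The time in each condition is not given in the sources used here. Nothing states that the 3 libraries of a group came from separate cultures, so p-values measure the spread between these libraries, which may be technical.

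Glycolysis turns glucose into pyruvate and is followed in many cells by reduction of pyruvate to lactate. HIF is a transcription factor whose alpha subunit is destroyed while oxygen is plentiful. When it is stabilised, HIF binds a short core sequence near genes of glycolysis, lactate export, pH control, angiogenesis and mitophagy. The proximal tubule in vivo uses little glucose as fuel, and cultured tubular lines are more glycolytic. Many glycolytic enzymes are themselves HIF targets, and those outside glycolysis were kept apart here.

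The core that HIF binds was searched as ACGTG or GCGTG, and as CACGT or CACGC for the other strand, in RefSeq promoter windows on GRCh38.p14 that run from 250 bases before to 50 bases after a transcription start. Windows were held for 32 of the 36 genes. It was in 43 of their 63 windows (68.3%), against 48.4% of all 35116 windows in the table. At least 1 window held it for 31 of these 32 genes (96.9%), against 52.4% of all 27305 genes. The 32 genes had more windows per gene than all genes did, which raises their share per gene. Many of them were also listed because they are known HIF targets, so these shares are no test of enrichment. PGAM1 was the gene without a match. LDHB and PKM each held 1 match, after the start, and none in the 250 bases before it. The following 30-base stretches hold the most upstream match of 7 genes whose RNA is described below, with each full match in capitals; CACGTG is a match on both strands.
LDHA (chr11:18394373-18394402, + strand): cagcgCACGTGgagcagtctgccggtcggt
HK2 (chr2:74833893-74833922, + strand): gaccaCACGTcccatctcaggcgccccgcc
ENO2 (chr12:6914457-6914486, + strand): ctcgtACGTGcgcctccgccggcagctcct
PFKFB3 (chr10:6144748-6144777, + strand): cggccCACGCcccggcttcccccagcagcc
PFKFB4 (chr3:48556945-48556974, - strand): ggcatGCGTGgtcggaggccgggccccttt
CA9 (chr9:35673898-35673927, + strand): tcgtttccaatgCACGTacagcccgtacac
BNIP3 (chr10:131982042-131982071, - strand): ccgcgCACGCgccgCACGTGccaCACGCac
These matches lie 185, 229, 118, 168, 166, 18 and 143 bases before the start, in the same order. LDHA held 5 matches upstream of this start and BNIP3 held 6, counting a sequence read on both strands as 2. A match is a description of the letters, and no factor's binding was measured.

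Some features of the libraries bear on every value that follows. FGF9 was listed at 0 TPM in all 9 NG, HG and si-FGF9 libraries and at 3.34, 4.03 and 3.82 TPM in HG + OE-FGF9, so these data cannot show the knockdown. Of 10 proximal tubule markers, 4 passed the filter and 6, among them the endocytic receptor LRP2, were under 1 TPM in every library. GGT1, at 71.65 to 195.31 TPM, made up nearly all of the proximal tubule sum. Of 4 general epithelial markers, KRT8 was at 389 to 678 TPM, KRT18 at 211 to 419 and EPCAM at 3.95 to 31.3, while CDH1 was under 1 TPM in every library. Distal nephron and endothelial markers were all under 1 TPM. Of 3 leukocyte markers, CD68 was at 108 to 159 TPM and 2 were under 1 TPM in every library. The 5 fibroblast markers summed to 56.7 to 84.8 TPM in NG, 14.3 to 39.1 in HG, 9.42 to 18.5 in si-FGF9 and 10.1 to 19.9 in HG + OE-FGF9, nearly all of it LUM, with 3 of the 5 under 1 TPM in every library, and their part in the results was not tested. Per library, 11549 to 13949 genes reached 1 TPM. Within NG, si-FGF9 and HG + OE-FGF9, a pair of libraries (2 and 3, 1 and 2, 1 and 2) was far closer than either was to the remaining library: over 388 genes at a mean of 300 TPM or more, the spread of log2 ratios was 0.053, 0.088 and 0.037 within the pairs and 0.237 to 0.347 otherwise, while the 3 HG pairs had 0.333 to 0.576. TPM keep no depth, so it cannot be tested whether these pairs differ by more than counting noise. Results with each close pair averaged to 1 library are therefore set beside the others below.

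The log2(TPM + 1) of all genes tested was shifted between groups, with a median difference of -0.39 for HG vs NG, -0.79 for si-FGF9 vs NG, -0.13 for HG + OE-FGF9 vs HG and -0.38 for si-FGF9 vs HG. The difference also ran with the GC content of the transcript. Once GC content was corrected for, library by library, these medians were -0.02, -0.07, -0.05 and -0.03. In what follows a gene is called differentially expressed by the study's own rule, an absolute log2 fold change of at least 1 with an unadjusted p under 0.01, and it is said to have risen, fallen or changed where the adjusted p was under 0.05. Both come from limma fitted to all 14639 genes, and fold changes are on the log2(TPM + 1) scale. Another scaling, by the median of ratios to each gene's geometric mean, brought the all-gene medians to 0.004, -0.012, -0.025 and -0.007 and so moved most fold changes upward, by more in si-FGF9. With the close pairs averaged, the adjusted p was under 0.05 for 10 rather than 13 of the 35 tested genes in HG vs NG (32.8% of all genes) and for 17 rather than 23 in si-FGF9 vs NG (57.9%). The genes that no longer passed were ENO2, CA9 and BHLHE40 in the former and GPI, PFKP, ENO2, PDK3, BNIP3 and BHLHE40 in the latter. For HG + OE-FGF9 vs HG, ENO2 alone passed, of 11 before, and for si-FGF9 vs HG, KDM3A alone, of 10 before.

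**Figure D1:**
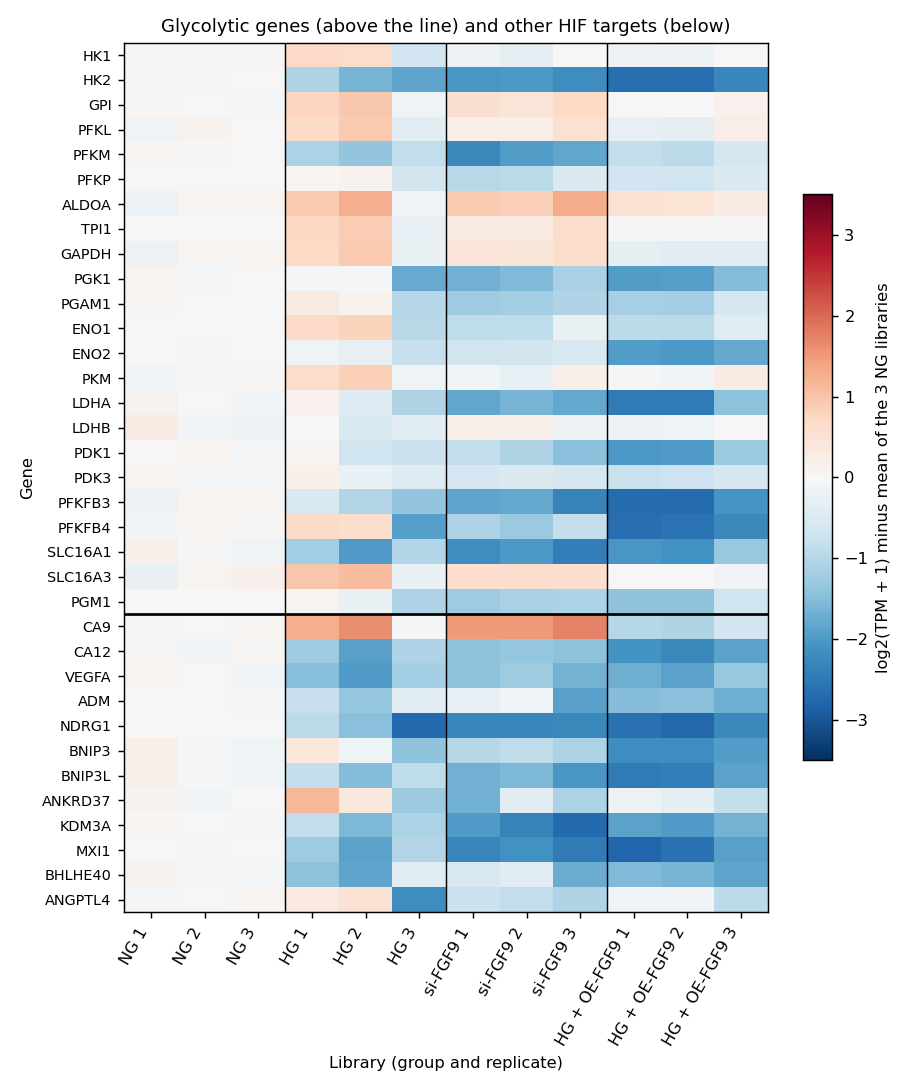
Each row is 1 of the 35 tested genes and each column 1 of the 12 libraries; colour gives log2(TPM + 1) minus the mean of the 3 NG libraries. Among the glycolytic genes above the black line, HG replicate 3 is paler or bluer than the other HG libraries for most rows, and the HG + OE-FGF9 columns are blue for LDHA, ENO2, PDK1, PFKFB3 and PFKFB4.

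Few glycolytic genes were called under 50 mM glucose, and those were isoforms that were lower. Of 23 tested, 3 were differentially expressed lower in HG than in NG and none higher, against 22.7% and 1.65% of all genes tested. These 3 were HK2, PFKM and SLC16A1. Of the 23, 5 changed, all downward, against 49.0% of all genes that changed in either direction. Their median log2 fold change was -0.19. After the correction for GC content only HK2 remained differentially expressed (6.84% of all genes were), and 4 glycolytic genes rose and 4 fell. The median-of-ratios scaling, which removes the overall shift, gave 3 higher and 1 lower, against 7.26% and 8.47% of all genes. The share of genes that went up or down thus depended on the scaling, whereas HK2, PFKM, PFKFB3 and SLC16A1 had negative fold changes under each of these scalings.

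Of these 23 genes, 1 was differentially expressed higher in si-FGF9 than in NG and 9 lower, against 5.36% and 42.2% of all genes. ALDOA was the gene that was higher, and HK2, PFKM, PGK1, PGAM1, LDHA, PDK1, PFKFB3, SLC16A1 and PGM1 were lower. With an adjusted p under 0.05, 2 rose and 12 fell, where 69.3% of all genes changed. The median log2 fold change was -0.67, close to the -0.79 of all genes. After GC correction 5 were differentially expressed, 2 of them higher, against 24.3% of all genes. The median-of-ratios scaling turned the split to 7 higher and 3 lower, against 18.9% and 17.8% of all genes. With the close pairs averaged 6 were lower and none higher, where 39.8% of all genes were lower, and ALDOA, PGK1, PGAM1 and PGM1 were no longer called.

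With FGF9 overexpressed in high glucose, LDHA, ENO2, HK2 and both PFKFB genes were among the glycolytic genes at lower levels. Of the 23, 7 were differentially expressed below HG in the HG + OE-FGF9 cells and none above, against 2.67% and 2.94% of all genes. They were HK2, PGK1, ENO2, LDHA, PDK1, PFKFB3 and PFKFB4. The adjusted p was under 0.05 for 7 as well, all lower, against 9.53% of all genes changed, and this 7 included GAPDH in place of PGK1. The median was -0.66 for these genes and -0.13 for all genes. GC correction left 5 of the 7 (5.21% of all genes), namely HK2, ENO2, LDHA, PFKFB3 and PFKFB4, and the median-of-ratios scaling also left 5, all lower, against 1.92% of all genes lower and 3.45% higher. With the close pairs averaged, 5 were differentially expressed, all lower (1.13% of all genes), but the adjusted p was under 0.05 for ENO2 alone, where 0.963% of all genes passed.

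The difference between the si-FGF9 and HG groups was tested as si-FGF9 vs HG, since both are set against the same NG libraries. Of the 23 genes, LDHA and PFKFB3 were differentially expressed lower in si-FGF9 and none was higher, against 9.67% and 1.40% of all genes. The adjusted p was under 0.05 for 7, all lower, against 32.9% of all genes, and for 0 of the 23 with the close pairs averaged, where 4.33% of all genes passed. The number differentially expressed was 0 without HG replicate 1, 4 without HG replicate 2 and 7 without HG replicate 3, all lower, against 6.22%, 16.2% and 10.1% of all genes. No glycolytic gene was differentially expressed in this comparison after GC correction, where 5.86% of all genes were.

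HG replicate 3 stood apart from HG replicates 1 and 2 for this pathway. It was the lowest of the 3 HG libraries for 20 of the 23 glycolytic genes, whereas it was the lowest for 33.2% of all genes tested. With GC-corrected values it was lowest for 21 of 23, against 43.1% of all genes. GAPDH was at 16349, 18871 and 8588 TPM in the 3 HG libraries and ENO1 at 3387, 3665 and 1089. Summed over 17 genes, the enzymes from hexokinase to lactate dehydrogenase, TPM made up 1.93, 2.10 and 2.08% of the NG libraries, 3.06, 3.35 and 1.51% of HG, 2.20, 2.17 and 2.58% of si-FGF9 and 1.49, 1.47 and 1.59% of HG + OE-FGF9. HG replicates 1 and 2 were thus the highest of the 12 libraries and HG replicate 3 was lower than every NG library. Without HG replicate 3, 5 glycolytic genes were differentially expressed between HG and NG, ALDOA and SLC16A3 higher and the same 3 lower, and 10 rose and 4 fell, where 58.9% of all genes changed. In HG + OE-FGF9 vs HG the number lower became 12. With HIF targets included, 13 of the 35 genes were then differentially expressed in HG vs NG (32.6% of all genes) and 17 lower in HG + OE-FGF9 vs HG (3.13% of all genes).

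Entry of glucose into the pathway depends on hexokinase, of which HK1 is the broadly expressed form and HK2 the inducible form. HK2 stood at 13.9, 14.8 and 14.3 TPM in NG, at 6.37, 3.97 and 3.23 in HG, at 2.74, 2.77 and 2.41 in si-FGF9 and at 1.46, 1.40 and 2.14 in HG + OE-FGF9. No group overlapped its control in any of the 3 comparisons of the study. The log2 fold change was -1.51 ± 0.21 (SE) for HG vs NG with a limma adjusted p = 0.000695. For si-FGF9 vs NG it was -2.07 ± 0.21 (SE) with a limma adjusted p = 1.12e-05. For HG + OE-FGF9 vs HG it was -1.02 ± 0.21 (SE) with a limma adjusted p = 0.0127. Of the 35 genes HK2, BNIP3L and MXI1 were differentially expressed in all 3 comparisons, and HK2 alone in all 3 after GC correction. Averaging the close pairs ended the call of HK2 and MXI1 in HG + OE-FGF9 vs HG (adjusted p = 0.195 and 0.27). The GC-corrected values of HK2 were -1.25, -1.49 and -1.06.

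HK1 showed no such separation. It was at 52.5, 56.8 and 57 TPM in NG, at 87.9, 86.8 and 34.3 in HG, at 48.9, 44.6 and 56.3 in si-FGF9 and at 47.9, 48.9 and 56.3 in HG + OE-FGF9, and the groups overlapped in each comparison. HK2 made up 20.9, 20.6 and 20.04% of HK1 plus HK2 in the NG libraries, then 6.76, 4.37 and 8.61% in HG, then 5.30, 5.84 and 4.11% in si-FGF9 and finally 2.96, 2.79 and 3.66% in HG + OE-FGF9. A share within a library does not depend on how that library is scaled. The difference in means was -13.9 percentage points for HG vs NG, -15.4 for si-FGF9 vs NG and -3.44 for HG + OE-FGF9 vs HG, each with an exact two-sided permutation p = 0.1, the smallest that 3 against 3 libraries can give. That test therefore describes separation of the groups and cannot reach 0.05 for any share below.

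GPI, which converts glucose phosphate to fructose phosphate, rose in si-FGF9 (0.57, adjusted p = 0.0372, and 0.144 with the close pairs averaged), where its 3 libraries lay above NG. The phosphofructokinases catalyse the committed step as tetramers of liver (PFKL), muscle (PFKM) and platelet (PFKP) subunits. PFKM was at 56.6, 51.7 and 53.3 TPM in NG, at 24.5, 19.9 and 29.5 in HG, at 10.4, 13.2 and 14.7 in si-FGF9 and at 29.9, 28.1 and 35.7 in HG + OE-FGF9. Both HG (log2 fold change -1.11 ± 0.18 (SE)) and si-FGF9 (-2.01 ± 0.18 (SE)) were lower than NG, with limma adjusted p = 0.00104 and 6.98e-06. Its level in si-FGF9 was also below HG (-0.90, adjusted p = 0.00499). In HG + OE-FGF9 vs HG the fold change was 0.34 with an adjusted p = 0.226, and the groups overlapped.

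PFKL was at 53.7, 63.7 and 57.98 TPM in NG, at 93.7, 111 and 44.05 in HG, at 68.3, 66.8 and 84.3 in si-FGF9 and at 47.2, 46.6 and 68.9 in HG + OE-FGF9. PFKP, the most abundant subunit, was at 211, 211 and 209 TPM in NG, at 219.9, 229 and 134 in HG, at 108, 108 and 149 in si-FGF9 and at 131, 130.3 and 148 in HG + OE-FGF9. PFKP fell in si-FGF9 (-0.80, adjusted p = 0.00293), although the value was 0.22 under median-of-ratios scaling. As shares of the summed subunits, PFKM made up 17.6, 15.8 and 16.6% in NG, then 7.25, 5.52 and 14.2% in HG, then 5.57, 6.99 and 5.91% in si-FGF9 and finally 14.4, 13.7 and 14.1% in HG + OE-FGF9. PFKL went the other way, from 16.7, 19.5 and 18.1% in NG to 27.7, 30.8 and 21.2% in HG and to 36.6, 35.5 and 33.98% in si-FGF9. The fold change of PFKM minus that of PFKL was -1.51 for HG and -2.32 for si-FGF9, and -0.96 and -1.52 after GC correction, as PFKL has 64.1% GC and PFKM 51.5%.

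PFKFB3 and PFKFB4 are bifunctional enzymes that make and break the sugar bisphosphate that activates phosphofructokinase. PFKFB3 was at 75.2, 89.7 and 89.8 TPM in NG, at 58.2, 41.01 and 31.6 in HG, at 23.03, 23.9 and 15.8 in si-FGF9 and at 12.3, 12.2 and 19.6 in HG + OE-FGF9. NG lay above HG and HG above the other groups, which overlapped each other. PFKFB3 fell in HG (-0.98 ± 0.25 (SE), limma adjusted p = 0.00714), in si-FGF9 (-1.99 ± 0.25 (SE), 2.96e-05) and in HG + OE-FGF9 vs HG (-1.50 ± 0.25 (SE), 0.00406). In HG it stayed just short of the fold change the study required. PFKFB4 was at 13.9, 15.6 and 15.2 TPM in NG, at 24.1, 23.5 and 3.21 in HG, at 6.49, 5.48 and 7.99 in si-FGF9 and at 1.48, 1.64 and 2.30 in HG + OE-FGF9. HG replicate 3 lay near the HG + OE-FGF9 libraries and the other HG libraries lay above NG. PFKFB4 was the member lowered most in HG + OE-FGF9 vs HG, with a log2 fold change of -2.30 ± 0.52 (SE), adjusted p = 0.0188 by limma, and -3.15 without HG replicate 3. For HG vs NG the value changed from -0.21 to 0.64 without that library.

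Aldolase and triose phosphate isomerase split the sugar into interconvertible triose phosphates. ALDOA was at 943, 1156 and 1157 TPM in NG, at 2028, 2631 and 1006 in HG, at 2054, 1935 and 2638 in si-FGF9 and at 1530.4, 1494 and 1292 in HG + OE-FGF9. It rose in si-FGF9, with a log2 fold change of 1.02 ± 0.27 (SE) (limma adjusted p = 0.0055), and 1.42 after GC correction. In HG it had 0.70 with an adjusted p = 0.053, and 1.10 without HG replicate 3. TPI1 ranged from 1197 to 2731 TPM over the 12 libraries and did not pass either threshold in any comparison of the study.

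GAPDH, which oxidises triose phosphate and is often taken as a reference gene, was not level across these groups. It was at 8761, 10768 and 10683 TPM in NG, at 16349, 18871 and 8588 in HG, at 13600.3, 13376 and 15468 in si-FGF9 and at 7989, 7783 and 7765 in HG + OE-FGF9. All 3 HG + OE-FGF9 libraries were below all 3 HG libraries, with a log2 fold change of -0.82 ± 0.23 (SE) and a limma adjusted p = 0.0423. The 3 si-FGF9 libraries lay above NG, with 0.49 and an adjusted p = 0.0699. For HG vs NG the value was 0.46 (adjusted p = 0.108) and 0.81 (adjusted p = 0.000223) without HG replicate 3.

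In the lower pathway PGK1 and PKM make ATP, PGAM1 moves a phosphate within phosphoglycerate and the enolases make phosphoenolpyruvate. PGK1 was at 952, 845 and 882 TPM in NG, at 875, 848 and 264 in HG, at 279, 303 and 404 in si-FGF9 and at 228, 233 and 313 in HG + OE-FGF9. It fell in si-FGF9 (-1.46 ± 0.36 (SE), limma adjusted p = 0.00343), but it had -0.22 after GC correction with an adjusted p = 0.688. PGAM1 was at 557, 539.9 and 534 TPM in NG, at 674, 592 and 270.1 in HG, at 228, 239 and 263 in si-FGF9 and at 244, 238 and 359.8 in HG + OE-FGF9. It fell in si-FGF9 as well (-1.16 ± 0.28 (SE), adjusted p = 0.0027, and -0.66 after GC correction). PKM had 0.45, -0.09 and -0.42 in the 3 comparisons of the study, with no adjusted p under 0.05.

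ENO1 was at 2172, 2105 and 2121 TPM in NG, at 3387, 3665 and 1089 in HG, at 1145, 1146 and 1818 in si-FGF9 and at 1123, 1106 and 1579.8 in HG + OE-FGF9, and no comparison of the study passed a threshold. ENO2, the enolase of neurons that many cultured lines also express, was at 293, 284 and 295 TPM in NG, at 263, 236 and 164 in HG, at 180.0, 187 and 199 in si-FGF9 and at 74.1, 70.7 and 82.6 in HG + OE-FGF9. It was the member with the smallest adjusted p in HG + OE-FGF9 vs HG, with a log2 fold change of -1.51 ± 0.16 (SE) and a limma adjusted p = 0.000332. The value was -1.57 after GC correction, and the adjusted p was 0.0178 with the close pairs averaged. In si-FGF9 vs NG it fell, with a log2 fold change of -0.62 ± 0.16 (SE) (adjusted p = 0.00397), though the median-of-ratios scaling gave 0.41, GC correction -0.26 (adjusted p = 0.0984) and averaging of the close pairs an adjusted p = 0.0548. The ENO2 share of the enolases was 11.9, 11.9 and 12.2% in NG and 7.21, 6.05 and 13.1% in HG, where replicate 3 alone exceeded NG, 13.6, 14.03 and 9.89% in si-FGF9, and then 6.19, 6.01 and 4.97% in HG + OE-FGF9.

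Lactate dehydrogenase is a tetramer of LDHA subunits, classed as a HIF target and associated with lactate formation, and LDHB subunits, associated with lactate use. LDHA (chr11:18394388-18408425, + strand, GRCh38) was at 1776, 1623 and 1544 TPM in NG, at 1823, 1197 and 786 in HG, at 463, 529 and 479 in si-FGF9 and at 296, 295 and 613 in HG + OE-FGF9. HG overlapped NG, while si-FGF9 lay below NG and below HG, and HG + OE-FGF9 lay below HG. The log2 fold change was -1.75 ± 0.30 (SE) for si-FGF9 vs NG (limma adjusted p = 0.000266). It was -1.66 ± 0.30 (SE) for HG + OE-FGF9 vs HG (limma adjusted p = 0.00679). It was -1.29 ± 0.30 (SE) for si-FGF9 vs HG (limma adjusted p = 0.01). After GC correction the si-FGF9 vs NG value was -0.59 with an adjusted p = 0.106, and the si-FGF9 vs HG value -0.85 with an adjusted p = 0.0536, so neither passed, whereas HG + OE-FGF9 vs HG kept -1.50 (adjusted p = 0.0075). Averaged close pairs gave an adjusted p of 0.00481, 0.0671 and 0.113 in the same order.

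LDHB (chr12:21635342-21757857, - strand) moved little on the TPM scale. It was at 1079, 828 and 791 TPM in NG, at 891, 608 and 673 in HG, at 1022, 1011 and 769 in si-FGF9 and at 781, 806 and 905 in HG + OE-FGF9, and every comparison of the study overlapped. The fold changes were -0.32, 0.06 and 0.21, with adjusted p from 0.151 to 0.79. In si-FGF9 vs NG the GC-corrected value was 0.94 (adjusted p = 0.000177), so whether LDHB rose there depended on the scaling.

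The ratio of the subunits within a library is free of that library's scaling. LDHB made up 37.8, 33.8 and 33.9% of LDHA plus LDHB in NG and 32.8, 33.7 and 46.1% in HG, then 68.8, 65.6 and 61.6% in si-FGF9 and finally 72.5, 73.2 and 59.6% in HG + OE-FGF9. The means were 35.1 ± 2.28% (SD, n = 3), 37.6 ± 7.46%, 65.4 ± 3.62% and 68.4 ± 7.66%. LDHB was the less abundant subunit in all 6 NG and HG libraries and the more abundant in all 6 si-FGF9 and HG + OE-FGF9 libraries. The difference was 30.2 percentage points for si-FGF9 vs NG, 30.9 for HG + OE-FGF9 vs HG and 27.8 for si-FGF9 vs HG, each without overlap (exact permutation p = 0.1). For HG vs NG it was 2.41 points with overlap. The transcripts differ little in GC content, 44% and 46.5%, and the fold change of LDHB minus that of LDHA was 1.80 in si-FGF9 vs NG and 1.88 in HG + OE-FGF9 vs HG, against 1.53 and 1.78 after GC correction. Adding the 9 named pseudogenes of both genes to their parents moved these differences by less than 0.1 points.

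**Figure D2:**
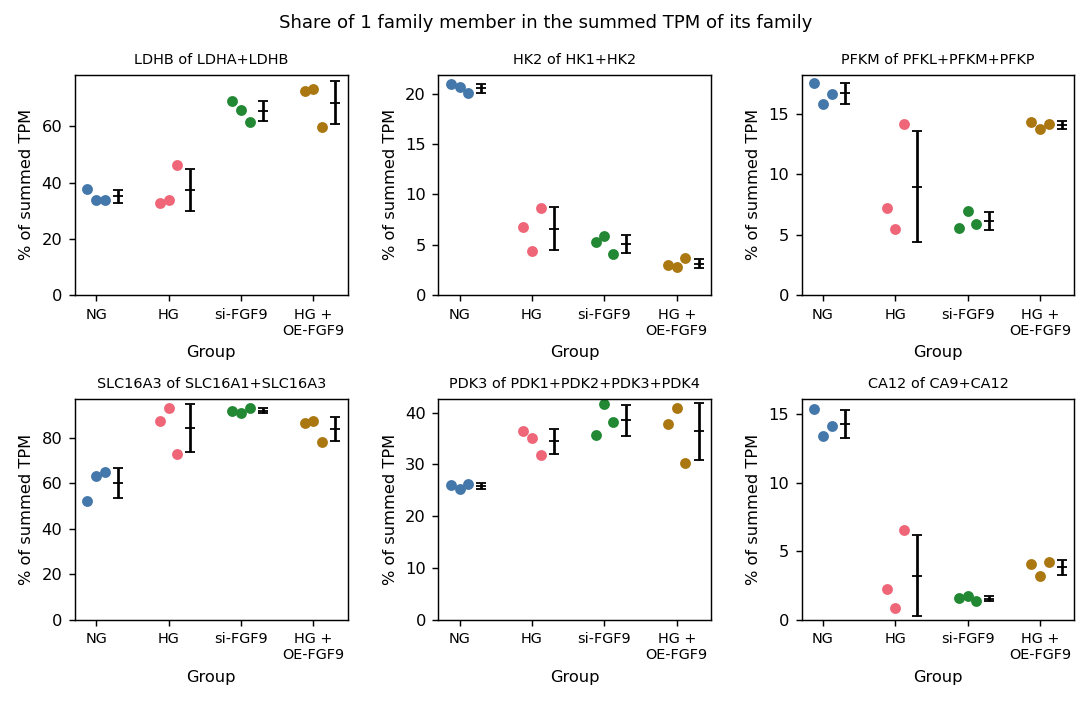
Each panel gives the share of 1 gene in the summed TPM of its family (percent, axis from 0), with coloured points for the 3 libraries of each group in replicate order and a black bar for mean ± SD. LDHB lies under 50% in NG and HG and above 50% in si-FGF9 and HG + OE-FGF9; HK2 lies near 20% in NG and under 10% in the other groups.

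Pyruvate dehydrogenase kinases inhibit pyruvate dehydrogenase, the enzyme inside mitochondria that commits pyruvate to oxidation. PDK1 was at 10.4, 10.8 and 9.68 TPM in NG, at 10.7, 5.94 and 5.69 in HG, at 5.2, 4.44 and 3.09 in si-FGF9 and at 1.78, 1.84 and 3.60 in HG + OE-FGF9. It fell in HG + OE-FGF9 vs HG, with a log2 fold change of -1.30 ± 0.27 (SE) (limma adjusted p = 0.0124). In si-FGF9 vs NG it fell too (-1.12 ± 0.27 (SE), adjusted p = 0.00255), but GC correction gave 0.46. PDK1 made up 32.7, 23.98 and 24.3% of the 4 kinases PDK1 to PDK4 in HG and 11.7, 12.6 and 16.4% in HG + OE-FGF9, without overlap. PDK3 was at 11.3, 10.2 and 10.02 TPM in NG, at 11.9, 8.69 and 7.45 in HG, at 6.63, 7.14 and 6.59 in si-FGF9 and at 5.74, 5.98 and 6.68 in HG + OE-FGF9. It fell in si-FGF9 (-0.56, adjusted p = 0.0135), but its value was 0.66 after GC correction and 0.36 with median-of-ratios scaling.

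SLC16A1 and SLC16A3 encode the monocarboxylate transporters MCT1 and MCT4, and the latter is the form linked to lactate export. SLC16A1 was at 83.4, 69.4 and 67.5 TPM in NG, at 31.7, 17.6 and 35.6 in HG, at 15.5, 17.4 and 12.8 in si-FGF9 and at 17.1, 16.2 and 28.7 in HG + OE-FGF9. SLC16A1 fell in HG (log2 fold change -1.40 ± 0.27 (SE)) and in si-FGF9 (-2.20 ± 0.27 (SE)), with limma adjusted p = 0.00202 and 2.57e-05. GC correction reduced these to -0.63 and -0.98, with adjusted p = 0.00876 and 0.000187. SLC16A3 was at 91.4, 119 and 124 TPM in NG, at 218, 237 and 94.4 in HG, at 168, 169 and 168 in si-FGF9 and at 109.9, 109.9 and 101 in HG + OE-FGF9. It had 0.61 in HG (adjusted p = 0.0833) and 1.03 without HG replicate 3. Of the pair, SLC16A3 made up 52.3, 63.2 and 64.7% in NG, then 87.3, 93.1 and 72.6% in HG, then 91.6, 90.7 and 92.9% in si-FGF9 and finally 86.5, 87.2 and 77.8% in HG + OE-FGF9. The fold change of SLC16A3 minus that of SLC16A1 was 2.01 for HG and 2.81 for si-FGF9, and 1.00 and 1.44 after GC correction, since the transcripts have 62.7% and 43.5% GC.

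PGM1, which links glycolysis to glycogen by interconverting glucose phosphates, was at 93.4, 94.4 and 92.6 TPM in NG, at 99.5, 79.7 and 43.6 in HG, at 38.8, 42.2 and 42.9 in si-FGF9 and at 34.4, 34.6 and 57.03 in HG + OE-FGF9. It fell in si-FGF9, with a log2 fold change of -1.16 ± 0.27 (SE) (adjusted p = 0.00199), and -0.37 after GC correction with an adjusted p = 0.242.

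**Figure D3:**
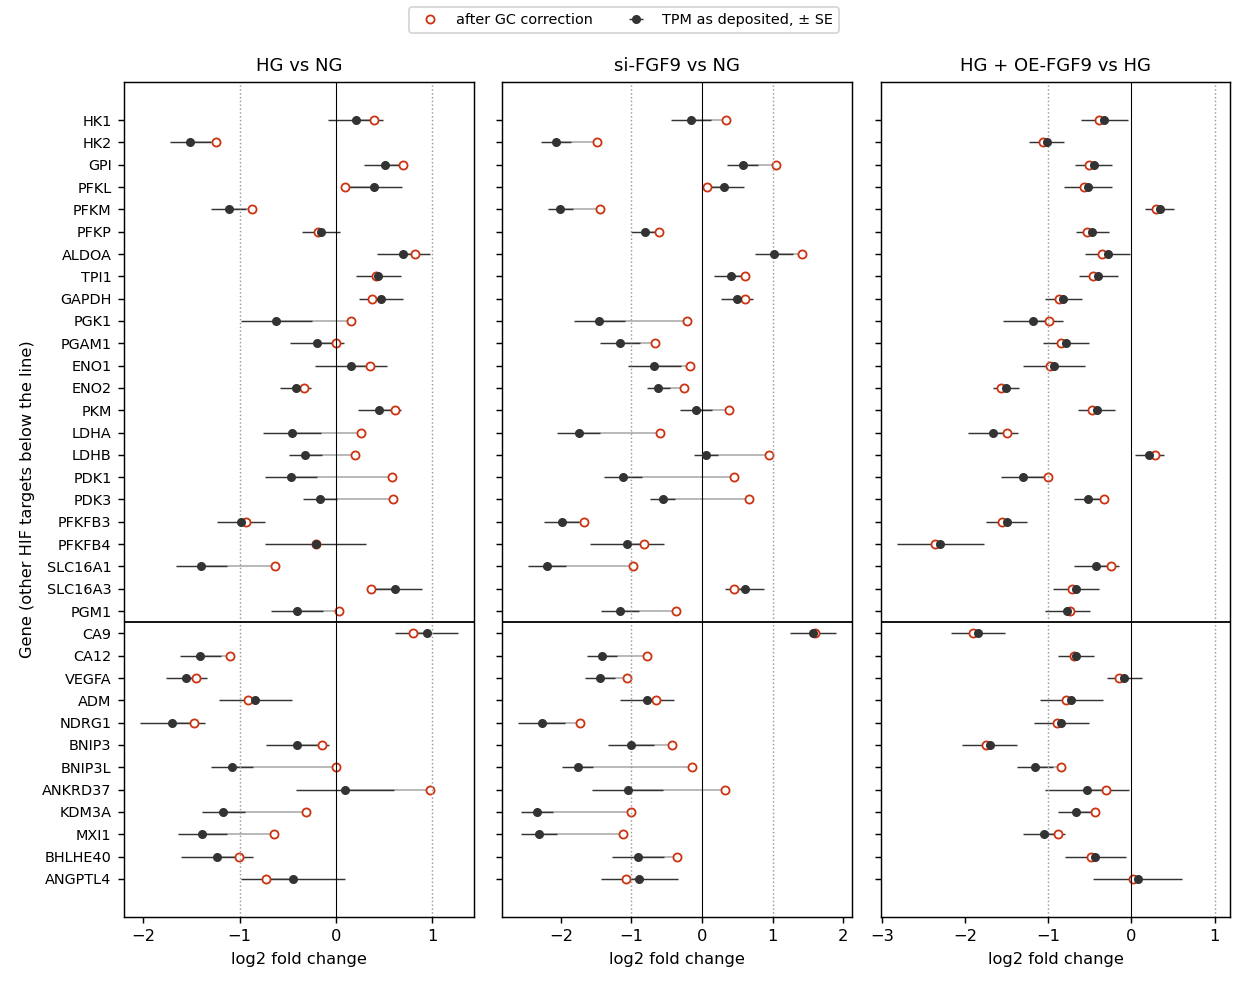
For each tested gene, log2 fold changes on the log2(TPM + 1) scale in the 3 comparisons of the study, with black points ± SE for TPM as deposited and open red points after GC correction; dotted lines mark -1 and 1. In si-FGF9 vs NG the red points lie to the right of the black for most genes, and in HG + OE-FGF9 vs HG both lie close together.

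Among the other HIF targets CA12, VEGFA, NDRG1, BNIP3L, MXI1 and KDM3A were lower in both HG and si-FGF9, whereas CA9 was higher in si-FGF9. After GC correction only VEGFA and NDRG1 stayed differentially expressed, and lower, in both. Of the 12, 7 were differentially expressed lower in HG than in NG and none higher. In si-FGF9 vs NG 6 were lower and 1 higher, and in HG + OE-FGF9 vs HG 4 were lower and none higher. In si-FGF9 vs HG, KDM3A alone was lower. The shares for all genes stand with the glycolytic counts above. The median log2 fold changes of the 12 were -1.13, -1.24, -0.70 and -0.51 in the order in which the 4 comparisons were named, against -0.39, -0.79, -0.13 and -0.38 for all genes. After GC correction, 3, 5, 2 and 0 were differentially expressed, 1 of the 5 being CA9 on the higher side. With the close pairs averaged the counts were 6, 7, 3 and 1, CA9 in si-FGF9 being the higher one, where 19.9%, 39.8%, 1.13% and 7.33% of all genes were lower, and the adjusted p was under 0.05 for none of the 12 in HG + OE-FGF9 vs HG. Summed TPM of the 12 were 1577, 1456 and 1410 in NG, then 1193, 893 and 599 in HG, then 710, 761 and 585 in si-FGF9 and finally 369, 358 and 407 in HG + OE-FGF9. HG replicate 3 was lowest of the HG libraries for 5 of the 12 and highest for 5. In all, 11 of the 35 tested members, both sets together, were differentially expressed below HG in the HG + OE-FGF9 cells and none above, against 2.67% and 2.94% of all genes, and with the close pairs averaged 8 were, with an adjusted p under 0.05 for 1.

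CA9 and CA12 are membrane carbonic anhydrases that face the outside of the cell and buffer its pH, and they moved apart. CA9 (chr9:35673856-35681159, + strand) was at 39, 40.8 and 42.9 TPM in NG, at 99.7, 128 and 38.8 in HG, at 117, 117 and 138 in si-FGF9 and at 19.9, 19.2 and 25.1 in HG + OE-FGF9. It was the sole one of these 12 HIF targets that rose in si-FGF9, with a log2 fold change of 1.57 ± 0.33 (SE) (limma adjusted p = 0.000983), and 1.60 after GC correction. In HG + OE-FGF9 it fell below every HG library and every NG library, with -1.85 ± 0.33 (SE) against HG (limma adjusted p = 0.006). For HG vs NG it rose (0.94 ± 0.33 (SE), adjusted p = 0.0322), with HG replicate 3 just below the NG libraries, and the value was 1.44 without that library. That rise did not pass with the close pairs averaged (adjusted p = 0.108).

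CA12 was at 7.08, 6.29 and 7.06 TPM in NG, at 2.28, 1.09 and 2.71 in HG, at 1.86, 2.03 and 1.86 in si-FGF9 and at 0.840, 0.630 and 1.11 in HG + OE-FGF9. CA12 fell in HG (-1.41 ± 0.21 (SE), limma adjusted p = 0.000924) and in si-FGF9 (-1.42 ± 0.21 (SE), 9.98e-05). GC correction gave -1.10 and -0.78, the latter no longer differentially expressed. CA12 made up 15.4, 13.4 and 14.2% of CA9 plus CA12 in NG, then 2.24, 0.846 and 6.52% in HG, then 1.57, 1.70 and 1.33% in si-FGF9 and finally 4.04, 3.18 and 4.24% in HG + OE-FGF9, and the groups did not overlap for HG vs NG or si-FGF9 vs NG.

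Among secreted factors, VEGFA, the main angiogenic growth factor, was at 129.7, 119.9 and 113 TPM in NG, at 42.6, 29.6 and 52.4 in HG, at 43.8, 50.7 and 37.8 in si-FGF9 and at 36.04, 32.1 and 47.4 in HG + OE-FGF9. VEGFA fell in HG (log2 fold change -1.55 ± 0.21 (SE)) and in si-FGF9 (-1.44 ± 0.21 (SE)), with limma adjusted p = 0.000652 and 7.88e-05. The GC-corrected values were -1.45 and -1.06. Overexpression of FGF9 gave -0.09 ± 0.21 (SE) against HG, with overlap. ADM, the vasodilator peptide adrenomedullin, ranged over 124.8 to 129.5 TPM in NG, 49.8 to 99.3 in HG, 33.5 to 115 in si-FGF9 and 38.2 to 45.8 in HG + OE-FGF9, without an adjusted p under 0.05. ANGPTL4, an inhibitor of lipoprotein lipase, was at 42.1, 46.9 and 6.55 TPM in HG, so 1 library set its value, and no comparison of the study passed a threshold.

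BNIP3 and BNIP3L are receptors for mitophagy on the outer mitochondrial membrane. BNIP3 was at 508, 422 and 393 TPM in NG, at 564, 393 and 165 in HG, at 218, 236 and 202 in si-FGF9 and at 96.2, 95.8 and 112 in HG + OE-FGF9. It fell in HG + OE-FGF9 vs HG, with a log2 fold change of -1.71 ± 0.33 (SE) (limma adjusted p = 0.00878), or -1.75 after GC correction. It also fell in si-FGF9 vs NG (-1.004, adjusted p = 0.0163), but that value was 0.03 with median-of-ratios scaling. BNIP3L was at 111, 94.9 and 87.9 TPM in NG, at 53.8, 33.7 and 52.1 in HG, at 29.6, 32.2 and 23.1 in si-FGF9 and at 16.9, 17.8 and 25.9 in HG + OE-FGF9. It fell in all 3 comparisons of the study (-1.08 ± 0.22 (SE), -1.76 ± 0.22 (SE) and -1.16 ± 0.22 (SE), limma adjusted p = 0.00255, 2.9e-05 and 0.00804). Its transcript has 38.9% GC, the lowest of the 35, and GC correction left -0.001, -0.14 and -0.84, with an adjusted p under 0.05 for the last alone (0.00146).

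NDRG1, a stress-responsive gene, was at 422, 424 and 425 TPM in NG, at 226, 152 and 63.9 in HG, at 86.9, 86.6 and 87.9 in si-FGF9 and at 67.9, 62.4 and 87.95 in HG + OE-FGF9. NDRG1 fell in HG (-1.70 ± 0.33 (SE), limma adjusted p = 0.00223) and in si-FGF9 (-2.27 ± 0.33 (SE), 8.31e-05), and GC correction gave -1.48 and -1.74. MXI1, an antagonist of MYC, was at 43.2, 45.2 and 43.2 TPM in NG, at 17.8, 11.2 and 21.1 in HG, at 7.98, 9.24 and 7.05 in si-FGF9 and at 5.51, 6.29 and 10.99 in HG + OE-FGF9. It fell in all 3 comparisons of the study (-1.39, -2.31 and -1.05, limma adjusted p = 0.00176, 1.6e-05 and 0.0255). GC correction reduced these to -0.65, -1.12 and -0.88.

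KDM3A, a histone demethylase, was at 25.6, 24.2 and 23.9 TPM in NG, at 13.2, 7.64 and 10.97 in HG, at 5.47, 4.08 and 2.91 in si-FGF9 and at 5.99, 5.47 and 7.15 in HG + OE-FGF9. KDM3A fell in HG (-1.17 ± 0.22 (SE), limma adjusted p = 0.00202), in si-FGF9 (-2.34 ± 0.22 (SE), 8.48e-06) and in si-FGF9 relative to HG (-1.17 ± 0.22 (SE), 0.00451). After GC correction the HG value was -0.31 with an adjusted p = 0.152, the si-FGF9 value -1.002 and the value for si-FGF9 vs HG -0.69, the last no longer differentially expressed. BHLHE40, a transcriptional repressor, was at 122, 109 and 108 TPM in NG, at 41.2, 30.5 and 83.7 in HG, at 76.1, 85.2 and 32.8 in si-FGF9 and at 38.2, 36.04 and 30.6 in HG + OE-FGF9. BHLHE40 fell in HG (-1.23 ± 0.37 (SE), limma adjusted p = 0.016), but the adjusted p was 0.0619 after GC correction. ANKRD37, an ankyrin repeat protein, stayed under 19 TPM and was called in no comparison.

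**Figure D4:**
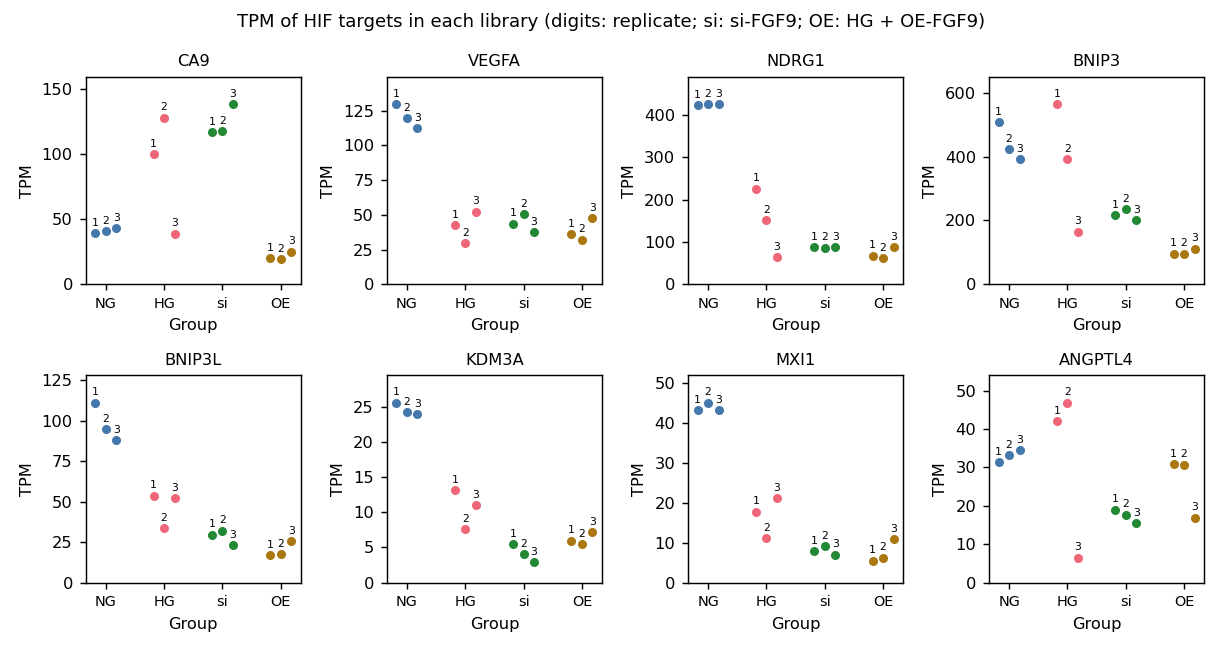
TPM (linear axis from 0) of 8 HIF targets in each of the 12 libraries, with the replicate number above each point. CA9 is highest in si-FGF9 and in HG replicates 1 and 2 and lowest in HG + OE-FGF9, and the other panels except ANGPTL4 have their highest or near-highest values in NG.

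The genes of HIF and its neighbours give the setting for these values. HIF1A, the oxygen-regulated subunit, was at 517, 472 and 416 TPM in NG, at 78.3, 37.2 and 216 in HG, at 43.4, 47.9 and 25.6 in si-FGF9 and at 29.7, 30.4 and 62.6 in HG + OE-FGF9. HIF1A fell in HG (-2.43, adjusted p = 0.00282) and in si-FGF9 (-3.59, 6.06e-05), with -1.30 and -1.95 after GC correction. The study's own RT-qPCR went the other way, with HIF1A mRNA reported as raised by high glucose and by the small interfering RNA. For FGF9 overexpression it reported a decrease. The study also selected HIF1A from the genes its sequencing called differentially expressed in each of its comparisons. Here HIF1A was not differentially expressed in HG + OE-FGF9 vs HG, and the groups overlapped. Its fold change there was -1.14 (limma adjusted p = 0.164), and -0.48 without HG replicate 3. Why the RT-qPCR and the sequencing differ, and why this call differs from the study's, was not tested. SLC2A1, the glucose transporter GLUT1, fell in HG (-0.72, adjusted p = 0.00839), in si-FGF9 (-1.31, 6.95e-05) and also in HG + OE-FGF9 vs HG (-1.11, 0.00457). With the close pairs averaged the limma adjusted p was 0.0567, 0.003 and 0.0947 in the same order, so only the fall in si-FGF9 passed. The values were -0.62, -0.94 and -1.17 after GC correction, and -0.21, -0.29 and -0.97 with median-of-ratios scaling. EGLN3, a HIF prolyl hydroxylase, stayed under 5 TPM, with 4.12, 4.32 and 0.270 in HG. The HIF protein and its activity were not measured.

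Many glycolytic genes have processed pseudogenes that can share reads with their parents. The annotation named 152 pseudogenes of these members, 65 of them of GAPDH and 44 of BNIP3. Their TPM came to at most 1.72% of the parent in any library, for BNIP3, and at most 0.0484% for GAPDH. Reads of a pseudogene that were counted to its parent cannot be told apart here.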

How the data were processed

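RNA was sequenced on a HiSeq3000 in 12 libraries of HK2 cells, 3 per group. The authors deposited TPM, rounded to 2 decimals, for 62703 Ensembl identifiers in tables per library and of the whole series. The submitters' processing notes list Bowtie 0.12.2 and mm8, a mouse build, although the identifiers are human. The quantifier is not given in the sources used here. The planned test assumed counts if deposited; TPM keep no depth, so the precision of single values is unknown and no count model was used.

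Gene names came from the supplied name table, and positions and GC content from GENCODE on GRCh38. log2(TPM + 1) was fitted with limma 3.58.1 in R 4.3.3 (empirical Bayes with a variance trend, group as the only term, all 12 libraries, genes reaching 1 TPM in at least 3 libraries). P-values were adjusted by Benjamini-Hochberg over 14639 genes. The GC correction subtracted, in each library, a natural spline (5 degrees of freedom) of gene deviations on GC content, which 96.9% of tested genes had. Shares were compared by exact two-sided permutation tests. The fit was tested on simulated data. The same-numbered libraries of different groups gave correlations of deviations from -0.439 to 0.248, with 3 of 18 over 0.1, so the numbers were not taken to pair libraries. Values in every library were given for genes called in a comparison of the study with an adjusted p under 0.05 and no overlap, for GAPDH and for the genes of the shares. From other gene lists, up to 2 called genes of the largest absolute log2 fold change were named. The members and lists were chosen with earlier results of these data known. Averaging close pairs was chosen after seeing the data. Other filters, pseudocounts, scalings, call rules and left-out libraries were also tried.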

Additional observations from a re-analysis of the deposited data

How the results depend on the processing

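Counts are of differentially expressed genes, glycolytic genes first and other HIF targets second, and were 3 and 7 for HG vs NG, 10 and 7 for si-FGF9 vs NG, 7 and 4 for HG + OE-FGF9 vs HG and 2 and 1 for si-FGF9 vs HG. The causes of the differences below were not tested. GC correction gave 1 and 3 for HG vs NG, 5 glycolytic genes for si-FGF9 vs NG, 2 HIF targets for HG + OE-FGF9 vs HG, and 0 and 0 for si-FGF9 vs HG. Median-of-ratios scaling gave 3 HIF targets for HG vs NG, 4 for si-FGF9 vs NG and 0 glycolytic genes for si-FGF9 vs HG. An adjusted p under 0.05 at any size gave 5 glycolytic genes for HG vs NG and 7 and 3 for si-FGF9 vs HG. Averaging close pairs gave 6 glycolytic genes for si-FGF9 vs NG. Dropping the filter, a pseudocount of 0.1 and fitting the 6 libraries of a comparison alone kept every count within 1.5 times. Over all genes tested, 3570 were differentially expressed in HG vs NG, against 970 after GC correction and 2303 with median-of-ratios scaling. The numbers were 6966 and, GC-corrected, 3452 for si-FGF9 vs NG, and 1620 and 831 for si-FGF9 vs HG. Averaging close pairs took HG + OE-FGF9 vs HG from 821 to 504. The replicate block, where numbers do not pair the libraries, gave 3 and 6, 10 and 8, 6 and 4, and 2 and 1.

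Leaving out 1 library at a time gave 2 to 5 and 4 to 8 for HG vs NG, 8 to 10 and 7 for si-FGF9 vs NG, 5 to 12 and 3 to 5 for HG + OE-FGF9 vs HG, and 0 to 7 and 0 to 5 for si-FGF9 vs HG. Leaving out HG replicate 3 gave the 5 and 12 glycolytic genes, and HG replicate 2 the 4 HIF targets. The shares of all genes moved too. Without HG replicate 3, 32.6% of all genes were differentially expressed in HG vs NG, against 22.7% lower and 1.65% higher with every library. In HG + OE-FGF9 vs HG 3.13% were then lower, against 2.67%. For si-FGF9 vs HG, the counts were 0 and 7 glycolytic genes without HG replicates 1 and 3, 4 without HG replicate 2, and 2, 5, 2 and 0 HIF targets without HG replicates 2 and 3 and si-FGF9 replicates 2 and 3. Of all genes, 6.22%, 16.2% and 10.1% were lower without HG replicates 1, 2 and 3, against 9.67% with every library. Shares of all genes for the other left-out libraries are not given here. Of 13 shares, 7, 11, 5 and 4 did not overlap in the 4 comparisons, and leaving out a library gave 7 to 11, 11 to 12, 5 to 11 and 4 to 8. The counts with all libraries include ALDOC in each comparison, although it failed the filter with at most 0.62 TPM. Shares taken from the same sum, such as those of PFKL, PFKM and PFKP, depend on each other. No rate of overlap was computed for other gene families. The upper values came without HG replicate 3 for HG vs NG and HG + OE-FGF9 vs HG (11 each) and without HG replicate 2 for si-FGF9 vs HG (8).

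Of 2858 log2 fold changes recomputed for 55 genes, 2474 stayed on their side of the adjusted p threshold, 256 lost it, 109 gained it and 19 reversed. Among the 2474, 108 changed sign with no adjusted p under 0.05 in either setting. Reversals in HG vs NG were ENO2 at 0.094 with median-of-ratios scaling, PDK3 at 0.60, RPE at 0.077, PPP1R3C at 0.15 and INSIG2 at 0.006 after GC correction, and, when 1 library was left out, PFKFB4 from -0.646 to 0.64 and HILPDA from -0.798 to 0.73, with the upper values without HG replicate 3. In si-FGF9 vs NG, median-of-ratios scaling gave HK1 0.86, PFKP 0.22, ENO2 0.41, PKM 0.95, PDK3 0.36, BNIP3 0.027, BHLHE40 0.12 and PCK2 0.75, and GC correction gave PDK1 0.46, PDK3 0.66 and RPE 0.029. In HG + OE-FGF9 vs HG, ANGPTL4 ranged from -0.79 without HG replicate 3 to 0.543 without HG replicate 2. Depth is unknown, so differences among genes at a few TPM are the least certain.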

Other observations

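PDP1 and PDK4, which set the activity of pyruvate dehydrogenase in opposite directions, were among the genes of neighbouring pathways that fell in HG. In HG vs NG, 5 of 13 tested further genes of glycolysis and its branches were differentially expressed lower, namely PFKFB2, PGM2, PGM3, SLC16A4 and SLC16A7. These 13 were not all isozymes of glycolytic enzymes, as SLC16A4 and SLC16A7 belong to the monocarboxylate transporter family. Also lower were 5 of 12 genes of pyruvate entry into mitochondria, 1 of 7 of the pentose phosphate pathway and 4 of 11 of glycogen metabolism. None of 3 tested genes of gluconeogenesis was lower, where 22.7% of all genes were. The counts for si-FGF9 were 8, 8, 2, 7 and 0, where 42.2% of all genes were lower. Higher there were ENO3 of the further glycolysis genes and 1 pentose phosphate gene, where 5.36% of all genes were higher. After GC correction the totals in either direction were 1, 2, 0, 1 and 0 for HG and 2, 2, 1, 1 and 1 for si-FGF9, in the same order with gluconeogenesis last, against 6.84% and 24.3% of all genes. Those of the further glycolysis genes, 1 for HG and 2 for si-FGF9, were all higher, so 0 of them stayed lower. The others for HG were all lower. For si-FGF9, the lower ones were 1 of pyruvate entry and 1 of glycogen metabolism. PDP1, the phosphatase that activates pyruvate dehydrogenase, had log2 fold changes of -2.57 for HG and -2.85 for si-FGF9, and -1.60 and -1.36 after GC correction. PGLS, which hydrolyses phosphogluconolactone, was at 36.99, 44.7 and 46.5 TPM in NG and 116, 109 and 139.6 in si-FGF9, a log2 fold change of 1.48 (limma adjusted p = 4.78e-05) and 1.41 after GC correction.

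In HG + OE-FGF9 vs HG, PCK2, the mitochondrial enzyme that makes phosphoenolpyruvate, rose from 13.9, 14.7 and 13.7 to 28.04, 28.2 and 34.3 TPM (1.04, limma adjusted p = 0.00703). GBE1 and PPP1R3C, of glycogen branching and glycogen synthase targeting, fell (-1.36 and -1.23, adjusted p = 0.00396 and 0.0139). GC correction gave 0.987 for PCK2, -1.197 for GBE1 and -0.991 for PPP1R3C, so PCK2 and PPP1R3C were no longer differentially expressed. With the close pairs averaged, none of these genes had an adjusted p under 0.05. None of the further glycolysis genes and no gene of pyruvate entry or the pentose phosphate pathway was differentially expressed there by limma as fitted. A further list of HIF targets, outside the 36 genes of the report, also held HIF1A and EPAS1, which encode HIF alpha subunits. Of its 36 tested genes, 11 were lower and 1 higher, against 2.67% and 2.94% of all genes, with a median of -0.76. After close pairs were averaged, 6 were lower and the adjusted p was under 0.05 for none. PLOD2, a collagen lysyl hydroxylase, had a log2 fold change of -2.32 and INSIG2, a regulator of sterol synthesis, -2.07, with GC-corrected values of -1.99 and -1.73. In HG vs NG 14 of these 36 were lower and 1 higher (22.7% and 1.65% of all genes). In si-FGF9 vs NG 23 were lower and 1 higher (42.2% and 5.36%). HIF1A was among the lower genes in both. After GC correction the counts were 5 and 1 in HG vs NG and 11 and 1 in si-FGF9 vs NG. Of all genes, 6.84% and 24.3% were then differentially expressed in either direction. Median-of-ratios scaling gave 6 and 1 (8.47% and 7.26% of all genes), then 10 and 3 (17.8% and 18.9%). HILPDA, a lipid droplet protein, was at 52.6, 50.3 and 51.3 TPM in NG, at 98.05, 75.01 and 10.9 in HG, at 8.59, 8.41 and 6.87 in si-FGF9 and at 9.08, 10.4 and 12.2 in HG + OE-FGF9, and HG replicate 3 lay within the range of the HG + OE-FGF9 libraries.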
